A study of Mus musculus with 5 samples.

Results

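The 57 genes described here mark dividing cells: 26 are used in S phase, when DNA is copied, and 31 in G2 phase and mitosis. They were taken by name from the 29818 genes of the count tables, with earlier results of these data known, and all 57 were present. The tables held single cells of femoral and tibial growth plate cartilage from 5 littermate C57BL/6J pups, 1 library per pup, captured on the BD Rhapsody system. The 2 WT pups carried the label for wild type with no further allele given. The 3 mutant pups were labelled only as mutant, and the series design gave the allele as Trpv4 p.R594H. This allele of a calcium channel was switched on by Col2a1-Cre in a conditional knock-in designed to be heterozygous. This Cre acts in cells that have used the Col2a1 promoter, chiefly chondrocytes and their descendants, so blood and vascular cells of the mutant pups lie largely outside it. The sample labels gave postnatal day 5 and the series design postnatal day 3, and the age could not be settled from the files. The comparison by genotype asks whether dividing cells take a different share of any cell class in the mutant pups.

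In the growth plate, resting chondrocytes feed columns of flat chondrocytes that divide, leave the cell cycle as prehypertrophic cells and then enlarge as hypertrophic cells. Entry into S phase needs the G1/S cyclins and E2F transcription factors, which switch on the replication genes. Later, B-MYB and FOXM1 on the MuvB complex switch on the mitotic genes, several of whose products are destroyed again as the cell divides.

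After the limits of 200 to 6000 genes per cell and 10% mitochondrial UMIs, 82516 of 84382 cells were kept, and the 57 genes held 1745078 UMIs in them, 535401 in S genes and 1209677 in G2/M genes. Single members ranged from 2814 UMIs (Cdc45) to 184155 (Smc4). The libraries held 117746735 to 183322632 UMIs. Depth differed with the label: the median cell had 9261 and 8521 UMIs in the WT libraries and 6657, 6000 and 7016 in the mutant libraries. Pairs of libraries shared 3 to 7 cell barcodes. Sex markers also differed: Xist was counted in 89.8% and 88.4% of cells of mutant replicates 1 and 2 and in 0.109% to 0.174% of cells elsewhere, where the Y-linked gene Ddx3y was found instead. The part of depth and sex in the results below was not tested, except where cells were brought to 1 depth. Trpv4 was counted in 33.7% to 54.6% of cells, and counts per gene do not tell its alleles apart.

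Cells fell into 45 clusters, drawn without cell cycle genes and without genes that followed them, and 43 of these were named from marker lists. Of 19 classes, 15 had at least 20 cells in every library. The labels call the cells chondrocytes, yet the second largest class was tendon or ligament-like (20.6% of cells), and erythroid, granulocyte, macrophage and endothelial-like cells were also found. The Il17b-led cluster (5316 cells) stayed unnamed. All 10 markers of proliferating chondrocytes, among them Col2a1, Acan and Matn1, stood above their mean over the clusters in it. It scored nearly alike for proliferating (1.599) and prehypertrophic (1.445) chondrocytes. Its leading genes, such as Il17b, Aldoc and the MHC class II genes H2-Ab1, H2-DMa and H2-DMb1, held no marker of proliferating chondrocytes. They did include Sfrp5, a marker of resting chondrocytes, and by the naming rule this kept the name back. Other names are also uncertain. Of the 43 named clusters, 9 scored highest for markers of another class and were named from their leading genes. These were 4 of the 6 resting clusters and the Arc and Epcam-led cluster of the Tgfbi class, which scored highest as proliferating chondrocytes, the Col10a1-led hypertrophic cluster (2.38 as prehypertrophic and 2.22 as hypertrophic), and 1 cluster each of the articular, tendon or ligament and granulocyte classes. The Prg4 and Wif1-led cluster scored nearly alike for resting (0.958) and articular (0.919) chondrocytes. The Abca8a-led cluster, 799 of the 1697 pericyte or smooth muscle-like cells, scored nearly alike for that class (1.564) and for perichondrial cells (1.529).

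The phases were first compared within single cells. Each cell was thinned to 3000 UMIs, and a cell was counted for a phase when it held at least 3 UMIs of that list. Of 80213 cells, 11.4% held S genes alone, 8.94% both lists, 8.73% G2/M genes alone and 70.9% neither. Each member was then followed in cells grouped by the other members, so that no gene chose the cells it was counted in. All 31 G2/M genes were higher in cells of the G2/M group alone than in cells of the S group alone, by a median ratio of 29.0. The steepest was Ube2c, the ubiquitin carrier of the anaphase-promoting complex, at 91.5, and the flattest were Smc4, a condensin subunit, at 4.62 and Cdk1 at 5.59. Ccnb1, the mitotic cyclin B1, was found in 0.34% of cells with S genes alone and in 13.8% of cells with G2/M genes alone. Mki67, which coats mitotic chromosomes, was found in 3.75% and 32.6% of them. The S genes were less clearly divided, with a median ratio of 0.53. The MCM helicase subunits Mcm2, Mcm3 and Mcm5 and the chromatin remodeller Hells stood at 0.30 to 0.31. Pcna, the sliding clamp of DNA polymerase, was found in 38.6% of cells with S genes alone, 24.0% with G2/M genes alone and 68.8% with both. It was found in 18.8% of cells without a single UMI of any other member, a narrower group than the cells with neither list above.

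**Figure D1:**
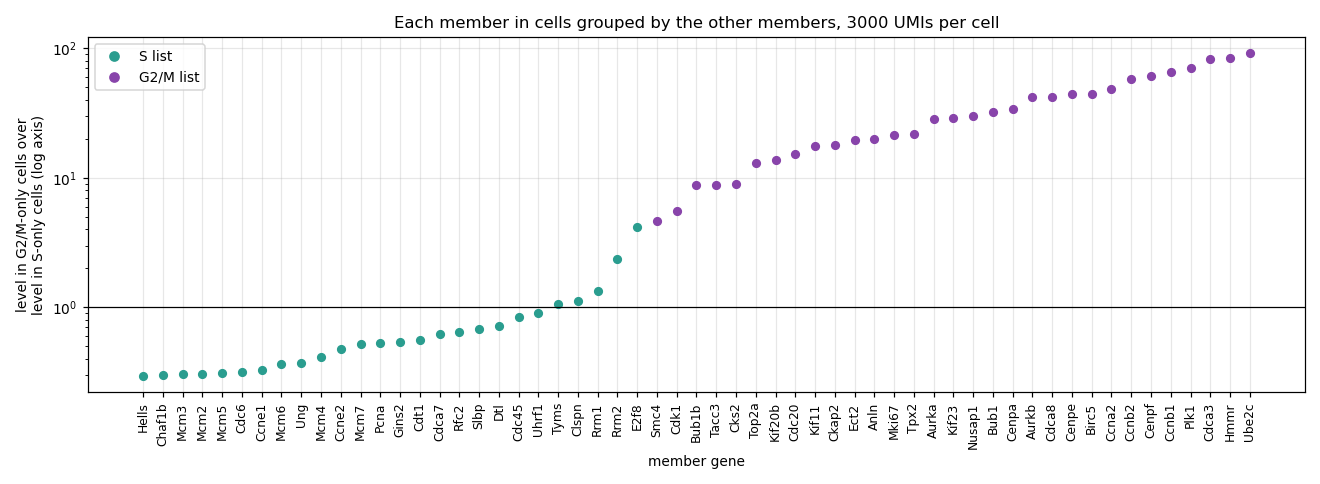
For each of the 57 genes, the level in cells with G2/M genes alone divided by the level in cells with S genes alone, on a log axis. The 31 G2/M genes lie at 4.62 or above, and 5 S genes (E2f8, Rrm2, Rrm1, Clspn and Tyms) lie above 1.

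The 5 S genes above 1 were E2f8 (4.18), a repressing E2F factor, the ribonucleotide reductase subunits Rrm2 (2.37) and Rrm1 (1.34), the checkpoint adaptor Clspn (1.11) and thymidylate synthase Tyms (1.06). Rrm2 was found in 3.85% of cells with S genes alone, 7.86% with G2/M genes alone and 42.4% with both. Like every other S gene, E2f8 and Rrm2 were most frequent in cells with both lists, where E2f8 was found in 18.7%.

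The promoters of the members were read for the elements of the 2 programmes, since the lists moved apart within cells. RefSeq promoters of mouse build GRCm38.p6, from 250 bases before to 50 bases after the start of transcription, were at hand for 49 of the 57 genes (52 promoters). Ccna2, Ccne2, Aurkb, Smc4, Rfc2, Mcm4, Gins2 and Tpx2 had no entry. The cell cycle homology region (CHR, letters TTTGAA), the CCAAT box (CCAAT) and the E2F core (TTCCCGC or TTCGCGC or TTGCCGC or TTGGCGC) were searched on both strands. In 5 promoters a CCAAT match shared bases with an E2F match. The CHR was in 21 of 28 G2/M promoters (75%), in 3 of 24 S promoters (12.5%) and in 17.9% of all 32851 promoters of the table. The E2F core was in 17 of 24 S promoters (70.8%), in 7 of 28 G2/M promoters (25%) and in 9.57% of all. The CCAAT box was in 82.1% of G2/M, 66.7% of S and 37.4% of all promoters. CHR and CCAAT stood together in 67.9% of G2/M, 12.5% of S and 6.95% of all promoters. Of the 29 CHR matches in G2/M promoters, 23 lay within 100 bases of the start. A match is a description of the letters, not a bound site.

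Of the promoters shown next, Mcm5 and Mcm6 stand for S genes with E2F cores and no CHR, and Rrm2 and E2f8 for the pair of S genes furthest above 1 in that ratio. Top2a, Ccnb2, Cdk1 and Mki67 stand for G2/M genes with a CHR, the latter pair also with an E2F core. Each reads 5′ to 3′ on the strand of the gene, with every CHR, CCAAT and E2F match on either strand in capitals.
Mcm5 promoter, chr8:75109259-75109558, forward strand: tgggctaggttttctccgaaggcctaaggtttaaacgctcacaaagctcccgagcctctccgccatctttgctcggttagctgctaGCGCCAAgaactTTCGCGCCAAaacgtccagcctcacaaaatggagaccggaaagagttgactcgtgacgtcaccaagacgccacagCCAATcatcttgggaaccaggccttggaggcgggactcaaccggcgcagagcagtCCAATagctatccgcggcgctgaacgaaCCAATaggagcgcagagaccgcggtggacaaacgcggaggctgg
Mcm6 promoter, chr1:128359656-128359955, reverse strand: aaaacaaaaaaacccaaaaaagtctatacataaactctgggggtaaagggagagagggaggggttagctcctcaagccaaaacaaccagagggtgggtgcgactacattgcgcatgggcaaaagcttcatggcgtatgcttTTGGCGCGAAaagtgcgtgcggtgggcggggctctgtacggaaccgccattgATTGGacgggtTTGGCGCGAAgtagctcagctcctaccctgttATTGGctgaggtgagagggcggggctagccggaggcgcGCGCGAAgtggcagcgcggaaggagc
Rrm2 promoter, chr12:24708004-24708303, forward strand: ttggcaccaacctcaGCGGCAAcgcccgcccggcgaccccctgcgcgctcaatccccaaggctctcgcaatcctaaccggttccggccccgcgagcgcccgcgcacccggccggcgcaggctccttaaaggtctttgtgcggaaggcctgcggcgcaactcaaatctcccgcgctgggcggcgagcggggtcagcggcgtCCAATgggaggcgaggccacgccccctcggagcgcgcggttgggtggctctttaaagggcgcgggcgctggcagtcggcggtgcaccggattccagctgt
E2f8 promoter, chr7:48881547-48881846, reverse strand: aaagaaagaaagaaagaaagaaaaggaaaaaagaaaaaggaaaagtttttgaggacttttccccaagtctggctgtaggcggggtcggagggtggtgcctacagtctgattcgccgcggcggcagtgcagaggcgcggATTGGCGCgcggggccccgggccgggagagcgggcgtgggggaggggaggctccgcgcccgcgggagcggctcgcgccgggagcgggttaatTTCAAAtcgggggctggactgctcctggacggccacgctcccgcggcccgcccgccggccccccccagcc
Top2a promoter, chr11:99024140-99024439, reverse strand: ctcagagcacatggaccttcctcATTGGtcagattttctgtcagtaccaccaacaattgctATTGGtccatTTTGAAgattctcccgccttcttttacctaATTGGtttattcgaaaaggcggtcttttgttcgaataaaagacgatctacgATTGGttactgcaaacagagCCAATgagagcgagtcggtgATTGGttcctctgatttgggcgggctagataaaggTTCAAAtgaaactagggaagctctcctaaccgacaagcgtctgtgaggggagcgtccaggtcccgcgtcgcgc
Ccnb2 promoter, chr9:70421505-70421804, reverse strand: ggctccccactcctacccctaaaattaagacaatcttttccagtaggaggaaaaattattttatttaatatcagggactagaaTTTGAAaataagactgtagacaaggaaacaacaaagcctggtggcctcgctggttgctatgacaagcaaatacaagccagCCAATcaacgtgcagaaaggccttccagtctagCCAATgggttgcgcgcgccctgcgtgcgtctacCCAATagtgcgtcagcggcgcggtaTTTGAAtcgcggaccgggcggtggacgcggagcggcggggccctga
Cdk1 promoter, chr10:69352863-69353162, reverse strand: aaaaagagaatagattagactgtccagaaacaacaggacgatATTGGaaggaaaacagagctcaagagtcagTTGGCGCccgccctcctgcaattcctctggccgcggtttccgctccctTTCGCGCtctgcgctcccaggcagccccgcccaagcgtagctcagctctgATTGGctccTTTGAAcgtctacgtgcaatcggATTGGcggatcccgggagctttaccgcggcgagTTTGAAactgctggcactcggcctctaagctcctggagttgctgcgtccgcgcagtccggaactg
Mki67 promoter, chr7:135716330-135716629, reverse strand: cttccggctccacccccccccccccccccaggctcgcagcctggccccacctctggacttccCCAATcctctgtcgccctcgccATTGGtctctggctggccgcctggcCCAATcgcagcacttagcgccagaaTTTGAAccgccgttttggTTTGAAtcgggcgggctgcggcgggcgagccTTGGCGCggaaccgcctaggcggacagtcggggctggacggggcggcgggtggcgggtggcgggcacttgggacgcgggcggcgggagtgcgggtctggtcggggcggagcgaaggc
The promoters of Mcm5 and Mcm6 held 3 and 5 E2F matches, some of them overlapping. E2f8 held 1 CHR, on the reverse strand, beside an E2F core that overlaps a CCAAT match, whereas Rrm2 held 1 E2F core and no CHR. Top2a held 2 CHR and 6 CCAAT matches and no E2F core.

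The share of all UMIs in the 2 lists was then compared between classes. The classes were drawn from the same cells, so their order is a description, without a test. Among cartilage classes the Il17b-led cluster had the highest summed level of both lists. With 6.44% of the cells it carried 17.1% of all S UMIs and 22.6% of all G2/M UMIs, where the resting class, with 24.8% of the cells, carried 19.8% and 19.1%. It held a median of 18883 UMIs per cell. Its G2/M genes summed to 2480 and 2596 CPM, counts per 1000000 UMIs of the class, in the WT libraries and 2287, 3332 and 2497 in the mutant libraries. The articular chondrocyte-like class held 2017 and 2116 against 2036, 1995 and 1475, and the resting chondrocyte-like class 1640 and 1298 against 1329, 1552 and 1181. The Tgfbi chondrocyte-like class held 1439 to 1664 and the proliferating chondrocyte-like class 787 to 1202. Classes such as these join several clusters, and single clusters within classes could lie above the Il17b-led one. The articular cluster led by Cytl1, Thsd4 and Notum held 4038 G2/M CPM against 2636, and the Mmp9-led hypertrophic cluster 1157 S CPM against 884. Prehypertrophic chondrocyte-like cells held 612 and 462 in WT and 415, 544 and 538 in mutant libraries. Hypertrophic chondrocytes are known to have left the cycle, and hypertrophic chondrocyte-like cells held 308 to 580 (214 to 474 in their Col10a1-led cluster). The part of free RNA in this level was not tested. Prehypertrophic and hypertrophic cells overlapped, and the resting class overlapped with the articular, the Tgfbi and the proliferating class. The S share was 788 to 984 in the Il17b-led cluster, 289 to 352 in prehypertrophic and 236 to 527 in hypertrophic cells, where the Col10a1-led cluster held 208 to 237 and lay below every prehypertrophic library.

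**Figure D2:**
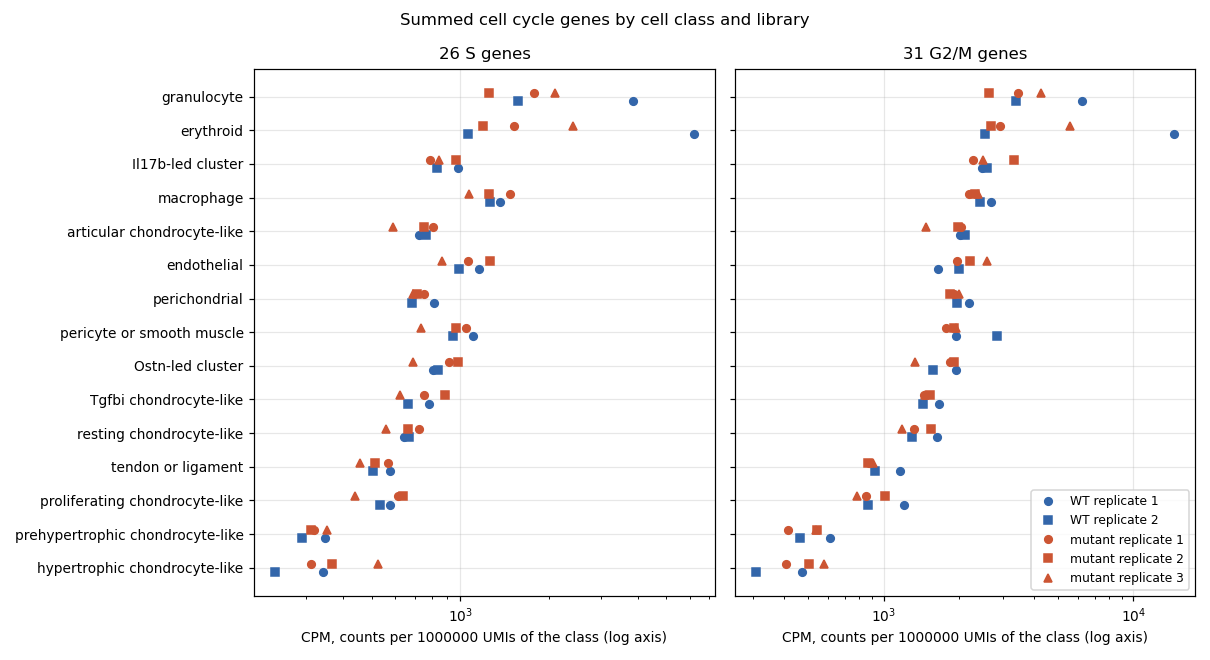
Summed CPM of the 26 S genes (left) and of the 31 G2/M genes (right), on log axes, with 1 point per library. Classes run from the lowest median over libraries of G2/M genes, in hypertrophic chondrocyte-like cells (308 to 580), to the highest. WT replicate 1 stands apart in erythroid-like cells at 14576.

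The Il17b-led cluster and the proliferating chondrocyte-like class both carried markers of proliferating chondrocytes, yet differed in their cycle genes. Those markers lie outside both lists, so the class name does not mean that its cells held more cycle genes than others. The name is also uncertain. The Chil1-led and Mt2-led clusters of that class scored 1.139 and 1.083 for proliferating chondrocytes. The Il17b-led cluster (1.599) and the Arc and Epcam-led cluster of the Tgfbi class (1.409) scored higher. In the proliferating class, 21.9% of cells thinned to 3000 UMIs held either list, against 38.8% in the Il17b-led cluster, 27.8% in the resting, 15.2% in the prehypertrophic and 17.3% in the hypertrophic class. The hypertrophic share was uneven: 5.10% of Col10a1-led cells held S genes and 5.10% G2/M genes, against 41.3% and 26.7% of the 75 cells led by Mmp9. Cells with both lists made up 15.4% of the Il17b-led cluster, 4.90% of the proliferating and 2.55% of the prehypertrophic class. Outside cartilage, 43.2% of erythroid-like and 44.6% of granulocyte-like cells held both lists. WT replicate 1 stood apart in erythroid-like cells, at 77.6% against 16.3% to 35.0% in the other libraries, and without it the pooled erythroid share was 20%, and the granulocyte share 30.2%. Skeletal muscle-like cells had the highest share with either list (75.1%): 36.1% held S genes alone, 29.3% both and 9.69% G2/M genes alone, in 382 cells. Perichondrial-like cells held 1846 to 2209 G2/M CPM and tendon or ligament-like cells 871 to 1167, with no overlap. This order did not hold for every cluster. The Col6a6 and Prlr-led perichondrial cluster held 649 to 849, and the Cilp, Thbs4 and Rspo2-led tendon or ligament cluster 1095 to 1703.

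**Figure D3:**
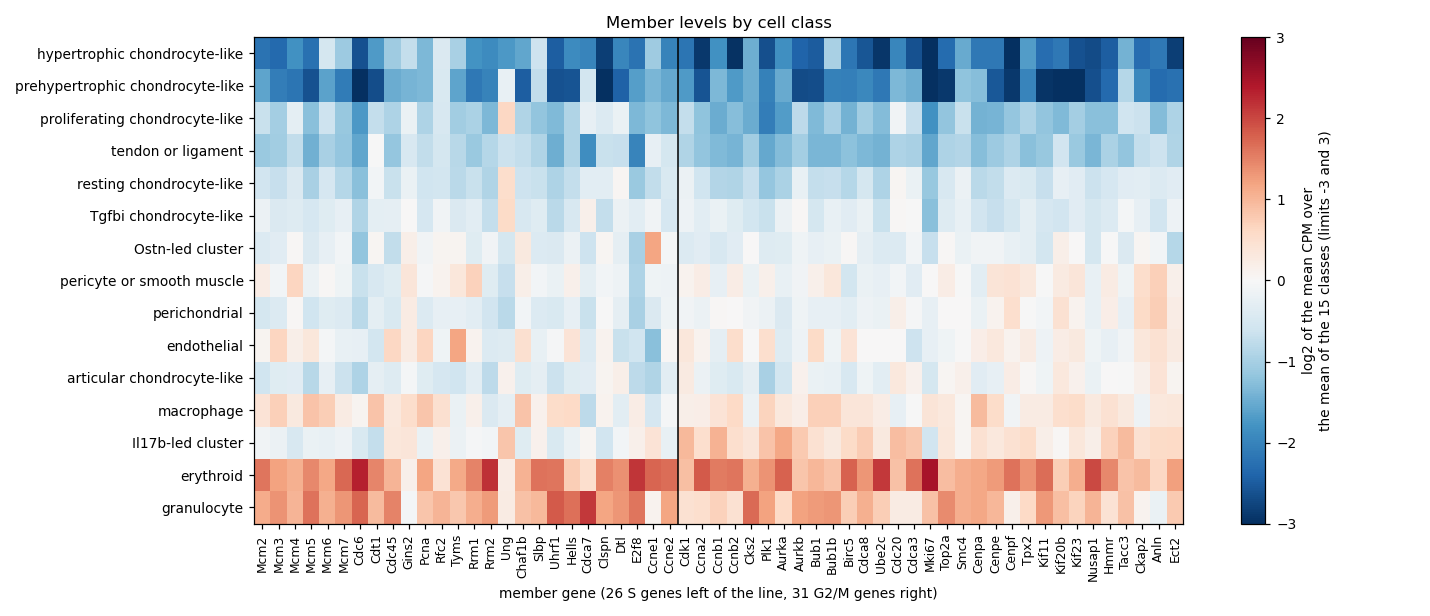
Level of each member in 15 classes, as log2 of its mean CPM over the mean of the classes. Prehypertrophic and hypertrophic chondrocyte-like cells are low for nearly every gene, and erythroid and granulocyte-like cells are high for most, the former with the high level of WT replicate 1 in their mean.

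Gene by gene, the Il17b-led cluster stood above the prehypertrophic class, every library against every library, for 25 of 26 S genes and all 31 G2/M genes, where 19.9% of all genes with at least 50 UMIs did. It stood above the resting class for 14 S and 28 G2/M genes (32.2% of all genes), and above the proliferating class for 18 S and 31 G2/M genes (34% of all genes). As whole classes, perichondrial-like cells stood above tendon or ligament-like cells for 19 S and 31 G2/M genes (34.2% of all genes). Of the 57 members, 49 were highest among cartilage classes in the Il17b-led cluster. The lowest class of all was the prehypertrophic one for 28 members and the hypertrophic one for 26.

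The licensing genes load and fire the replicative helicase. Mcm2 held 26.9 and 22.7 CPM in the WT and 19.9, 27.9 and 24.4 in the mutant libraries of the Il17b-led cluster, and Mcm6 held 65.9 and 51.2 against 48.8, 65.0 and 60.2. The genotypes overlapped for both. Mcm6 was the member least above hypertrophic cells, 1.24 times, since those held 38.1 to 55.6. Cdc6, which loads the MCM ring, held 13.4 and 9.74 CPM against 6.18, 9.73 and 10.3, and was furthest of the S genes above the prehypertrophic class, 7.54 times. Cdt1, its partner, was highest among cartilage classes in resting cells, and the Il17b-led cluster held 0.65 times the resting level. Clspn (0.84), Dtl (0.90) and Mcm4 (0.96) also lay below the resting level there.

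Among genes of DNA synthesis, Pcna held 179 and 151 CPM in the WT and 157, 182 and 162 in the mutant libraries of the Il17b-led cluster, and 68.1 to 80.5 in prehypertrophic cells. Rrm2 held 60.2 and 49.3 against 54.9, 76.5 and 52.1. Tyms held 24.9 and 18.9 against 21.1, 29.2 and 17.7. All 3 overlapped between genotypes. Rfc2, a subunit of the clamp loader, was the flattest S gene, 1.52 times the prehypertrophic level. Uhrf1, which carries DNA methylation through replication, held 30.1 and 25.0 against 21.9, 28.7 and 26.8.

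The G1/S cyclins were sparse: Ccne1 held 17.2 and 16.5 CPM in the WT and 16.4, 19.98 and 17.7 in the mutant libraries of the Il17b-led cluster, and Ccne2 held 10.96 and 8.52 against 9.15, 11.6 and 10.4. E2f8 held 19.7 and 23.5 against 18.5, 21.2 and 23.3 and was the S gene furthest above resting cells in this cluster, 2.42 times. The checkpoint genes Clspn and Dtl were highest among cartilage classes in articular cells instead.

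Cdk1 drives entry into mitosis with cyclins A2 and B1. It held 147 and 135 CPM in the WT and 149, 258 and 176 in the mutant libraries of the Il17b-led cluster, against 21.6 to 36.5 in prehypertrophic cells. Ccna2 held 114 and 104 against 108, 171 and 118, and Ccnb1 held 44.8 and 46.7 against 49.1, 85.1 and 55.4. For each of these cyclins and for Cdk1, mutant replicate 2 was the highest of the 5 libraries.

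The same library led for the mitotic kinases and their partners. Plk1, which drives centrosomes and mitotic exit, held 12.4 and 13.7 CPM in the WT and 13.8, 22.0 and 14.3 in the mutant libraries of the Il17b-led cluster. Aurkb, the kinase of the chromosomal passenger complex, held 30.0 and 30.9 against 28.2, 44.3 and 35.9. Its partner Birc5 held 92.1 and 93.5 against 99.3, 155 and 102. From resting cells to this cluster Aurka and Plk1 stood highest of all members, 4.35 and 4.04 times, where the median G2/M gene stood 2.04 times higher.

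Ube2c and Cdc20 act on the anaphase-promoting complex, which ends mitosis. Ube2c held 144 and 133 CPM in the WT and 154, 255 and 163 in the mutant libraries of the Il17b-led cluster, and Cdc20 held 77.4 and 72.9 against 80.9, 129 and 85.2. Both lay higher in every mutant library than in either WT library, as did Cdk1, Ccnb1, Plk1 and Birc5. These were the 6 members of this kind, where 7.53% of all genes were higher in every mutant library.

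Chromosome and centromere genes were less uniform. Top2a, which untangles DNA, held 273 and 270 CPM in the WT and 231, 314 and 267 in the mutant libraries of the Il17b-led cluster. Cenpa, the centromeric histone, held 64.4 and 74.1 against 79.2, 99.9 and 68.1. Mki67 held 144 and 159 against 89.1, 120 and 114, with all mutant libraries below, opposite to Ube2c and Cdc20. Cenpf, a kinetochore protein, held 66.6 and 91.9 against 54.6, 77.6 and 71.8, and was the member furthest above hypertrophic cells (2.08 to 9.02 CPM, from 38 UMIs in all), 14.7 times.

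Clusters of 1 class differed more than many classes did. Within the articular class, the Cytl1, Thsd4 and Notum-led cluster held 4038 G2/M CPM (2708 to 4801 over the libraries), whereas the Prg4 and Cilp-led clusters held 692 and 613 (443 to 874). Prg4 encodes lubricin, the lubricant of the joint surface. In the Tgfbi class, the Arc and Epcam-led cluster held 1983 (1775 to 2200) and the Notum and Gdf5 cluster 474 (376 to 606). The former made up 69.6% and 68.2% of that class in the WT libraries and 47.8%, 44.4% and 51.0% in the mutant libraries. In the resting class, the Sfrp1 and Scube3-led cluster held 2317 (1536 to 3334) and the Prg4 and Wif1-led cluster 845 (564 to 1032). In the hypertrophic class, the Col10a1-led cluster held 285 (214 to 474) and a cluster of 75 cells led by Mmp9 held 1615, with 465 and 855 in the WT and 2241, 1919 and 1933 in the mutant libraries. The genotypes did not overlap there for G2/M genes, but did for S genes (1229 and 380 against 1034, 1512 and 1705). These differences were not tested. That cluster has as few as 9 cells in a library. Since its level is far above the other, the class mean is not the level of Col10a1 cells alone. Some larger clusters were lower in every mutant library. Examples are the Igfbp2-led perichondrial cluster (2274 and 2242 G2/M CPM against 1751, 1973 and 2044) and the Prg4 and Vit-led articular cluster (874 and 818 against 570, 654 and 486). These were picked for not overlapping, whereas most of the 45 clusters overlapped between genotypes in G2/M genes. A genotype effect in single clusters was not tested. Over the 45 clusters, S and G2/M shares went together (r = 0.893 of log2 values, Spearman's rho = 0.876), as a description, since the clusters share libraries and depth.

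Inhibitors of cyclin-dependent kinases, which hold cells out of the cycle, are not in the list. Cdkn1c, the p57 inhibitor of cyclin-dependent kinases, held 3489 and 5272 CPM in the WT and 4969, 2651 and 3097 in the mutant libraries of the hypertrophic class, and 2127 and 3827 against 4127, 2273 and 2222 in the prehypertrophic class. In the Il17b-led cluster it held 566 to 1066 and in resting cells 755 to 1020, so that the 2 classes with fewest cycle genes lay above both in every library. Cdkn1a (p21) ran likewise, with 403 to 593 in hypertrophic and 215 to 348 in prehypertrophic cells against 151 to 201 in the Il17b-led cluster. Cdkn1b (p27) did not separate them, with 92.5 to 152 in hypertrophic cells and 92.7 to 124 in the Il17b-led cluster. Cdkn2c (p18), an inhibitor of the cyclin D kinases, ran the other way, with 8.55 to 21.6 in hypertrophic cells, 11.5 to 16.2 in prehypertrophic cells and 29.7 to 45.6 in the Il17b-led cluster. Ccnd1 (cyclin D1) held 198 to 319 in the Tgfbi class, 189 to 222 in the Il17b-led cluster and 68.1 to 101 in resting cells. Among cartilage classes, Ccnd2 was highest in articular cells at 675 to 842.

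The upper limit on genes per cell bears on dividing cells, which hold more RNA. It removed 142 and 181 cells of the WT libraries and 23, 6 and 12 of the mutant libraries. These cells held 4002 and 3812 G2/M CPM in WT and 2594, 8060 and 3967 in mutant libraries, where the cells kept held 1422 to 1921. Kept cells with 5000 to 6000 genes, 163 to 818 per library, held 2396 to 4800.

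The share of cells counted as cycling moved with depth. With all UMIs of each cell, 51.5% and 47.0% of WT cells and 37.4%, 33.4% and 35.6% of mutant cells held at least 3 G2/M UMIs. Such shares were lower in the mutant in all 32 comparisons of 16 groups and 2 lists, with no overlap in 26 (smallest p = 0.1, smallest adjusted p = 0.178, 2-sided exact permutation test). Prehypertrophic cells, the deepest class at a median of 26860 UMIs, then stood at 80.3% to 89.4%, and the Il17b-led cluster at 66.2% to 83.7%. At 3000 UMIs per cell the shares were 20.7% and 17.5% in WT and 17.2%, 17.9% and 14.9% in mutant libraries. The mutant mean was lower in 21 of 30 comparisons at that depth. Of 30 comparisons at that depth 2 did not overlap, the G2/M genes of macrophage-like cells (39.5% and 36.8% against 32.3%, 31.4% and 34.5%) and of prehypertrophic cells (12.3% and 10.9% against 7.74%, 10.4% and 10.4%). Both were lower in the mutant, and the smallest adjusted p was 1 (exact permutation test). In the Il17b-led cluster the shares were 29.9% and 27.0% in WT and 26.3%, 36.5% and 24.5% in mutant libraries, and overlapped. With at least 1 UMI, 6 of 30 comparisons at that depth did not overlap, all lower in the mutant, and the smallest adjusted p was again 1 (exact permutation test). Shallower cells left out made up 0.07% of WT and 4.49% of mutant cells, and most in granulocyte-like (1.39% and 33.7%), perichondrial-like (0.16% and 11.9%), erythroid-like (0% and 11.2%) and articular cells (0.10% and 10.6%).

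**Figure D4:**
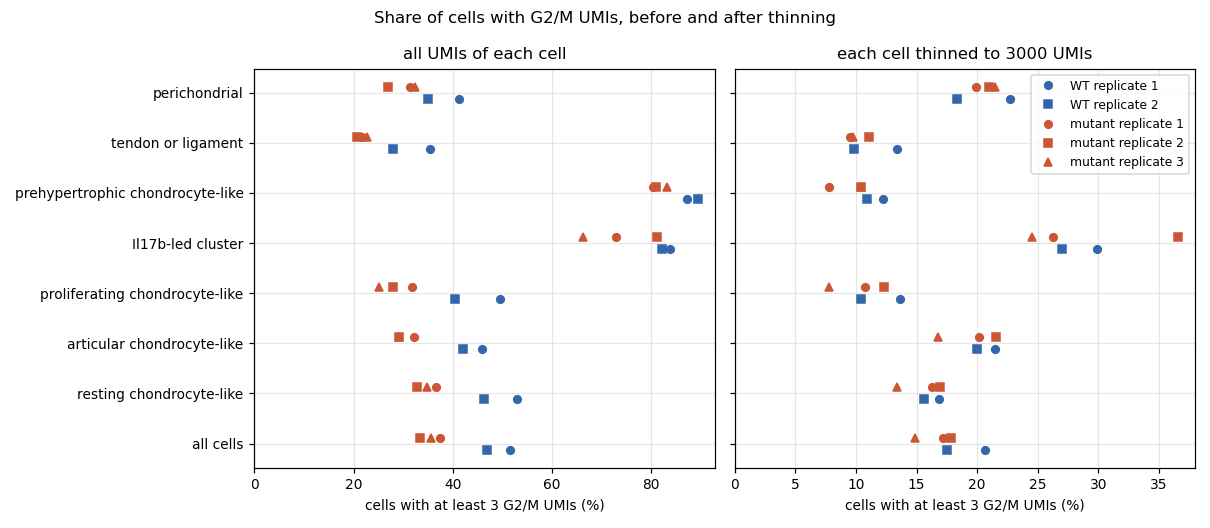
Percent of cells with at least 3 G2/M UMIs by class and library, from all UMIs (left) and with each cell thinned to 3000 UMIs (right). The gap between WT (51.5% and 47.0%) and mutant (37.4%, 33.4% and 35.6%) over all cells closes to 20.7% and 17.5% against 17.2%, 17.9% and 14.9%.

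By genotype, no class passed a test of its share of UMIs. The mutant mean was lower in 24 of 32 comparisons, and the libraries did not overlap in 3, all lower in the mutant. With 2 against 3 libraries, the smallest p an exact permutation test can give is 0.1. Of 32 comparisons 2 reached it, tendon or ligament-like cells (1167 and 928 G2/M CPM in WT, 874, 871 and 907 in mutant libraries) and macrophage-like cells (2701 and 2426 against 2199, 2318 and 2393), and the smallest adjusted p was 0.929. Over all cells the G2/M share was 1777 ± 203 (SD, n = 2) in WT and 1506 ± 112 (SD, n = 3) in mutant libraries (exact permutation p = 0.2). The groups touched, with WT replicate 2 at 1633.7 and mutant replicate 2 at 1633.5. The S share was 765 ± 108 and 678 ± 54.4 (exact permutation p = 0.5). WT replicate 1 held 254 erythroid-like cells with 14576 G2/M CPM, where the other libraries held 45 to 184 such cells with 2559 to 5563, and this class enters the sum over all cells.

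In the Il17b-led cluster the G2/M share was 2538 ± 81.6 (SD, n = 2) in WT and 2706 ± 553 (SD, n = 3) in mutant libraries (exact permutation p = 0.9), with mutant replicate 1 below, replicate 2 above and replicate 3 between the WT libraries. In resting cells it was 1469 ± 242 and 1354 ± 187 (exact permutation p = 0.6), and in prehypertrophic cells 537 ± 106 and 499 ± 72.7 (exact permutation p = 0.7). The prehypertrophic difference of -37.9 changed sign, to between 38.0 and 437, under 5 other clusterings or cell limits, and the cause was not tested.

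Tested gene by gene with edgeR's quasi-likelihood test on UMIs summed per library and class, none of the 57 genes passed an adjusted p of 0.05 in all cells or in any of the 15 classes (0 of 879 tests). This did not hold for 13 members in the Tgfbi class at a limit of 20% mitochondrial UMIs, for 1 or 2 members in 5 classes without a filter on low counts, or for 18 in erythroid-like cells without WT replicate 2, all lower in the mutant. Over all genes of these 16 fits, 0.0065% of tests passed. The smallest adjusted p of a member was 0.295, for Mki67 in the Tgfbi class. At an unadjusted edgeR p under 0.05 there were 60 member tests (6.83%), where all genes gave 5.37%. The pooled share was thus close to the background, but it joins lists and directions that split unevenly. Of all 879 member tests, 39 were lower and 21 higher in the mutant at that p. The split was not tested. DESeq2 also called none of the 879 at an adjusted p of 0.05 (0.128% of all tests), with 45 at an unadjusted p under 0.05. Of the 60, 34 were G2/M genes lower in the mutant and 15 were S genes higher, whereas 6 G2/M genes were higher and 5 S genes lower, where 2.75% of all tests were lower and 2.62% higher at that p. The median log2 fold change of the G2/M genes was below 0 in 12 of the 16 fits and that of the S genes in 7, where that of all genes was below 0 in 13.

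By class, the members under that unadjusted p numbered 5 in all cells (5.56% of all genes), 2 in the Il17b-led cluster (4.23%), 3 in the resting class (4.3%), 4 in tendon or ligament-like cells (5.68%), 5 in perichondrial-like cells (4.02%), 6 each in the articular class (6.23%), the Ostn-led cluster (8.28%) and endothelial-like cells (4.82%), and 10 in pericyte or smooth muscle-like cells (7.07%). The other classes had 0 to 4. The 10 in pericyte or smooth muscle-like cells, all lower in the mutant, were Anln, Cenpe, Cenpf, Kif11, Mki67, Nusap1, Smc4, Top2a, Tpx2 and the S gene Rrm1. The 6 in endothelial-like cells, Birc5, Cenpa, Cks2, Kif23, Dtl and Rrm2, were all higher in the mutant. Among pericyte or smooth muscle-like cells WT replicate 2 stood apart, with 2836 G2/M CPM against 1774 to 1958 in the other 4 libraries.

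Counting libraries instead of testing, 8 S and 19 G2/M genes were lower in every mutant than in every WT library over all cells and none was higher, where 20% of all genes were lower and 3.84% higher. In the Il17b-led cluster 4 S and 2 G2/M genes were lower and 6 G2/M genes higher (14.1% and 7.53% of all genes). In the resting class 3 S and 4 G2/M genes were lower and 1 S gene higher (15.2% and 5.11% of all genes).

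In the Il17b-led cluster the G2/M genes with the smallest edgeR p were Mki67 (log2 fold change -0.45 ± 0.14 SE, unadjusted p = 0.012, adjusted p = 0.948), Aurka (0.49 ± 0.22) and Ube2c (0.51 ± 0.23). The S genes with the smallest p were Dtl (-0.29 ± 0.15), Mcm7 (-0.22 ± 0.13) and Slbp (-0.18 ± 0.12). None of the 6 passed after adjustment. Dtl, part of a ubiquitin ligase of S phase, held 30.5 and 26.5 CPM in the WT and 18.9, 23.6 and 25.0 in the mutant libraries. Slbp, which binds histone mRNA, held 63.2 and 59.5 against 50.5, 56.6 and 50.9, and Mcm7 held 24.8 and 25.99 against 19.6, 23.0 and 21.0. All 3 lay lower in every mutant library. Aurka held 14.3 and 18.1 against 17.9, 28.6 and 19.6, and the genotypes overlapped. Top2a (0.04 ± 0.15), Pcna (0.06 ± 0.13) and Mcm2 (0.00 ± 0.17) lay near 0.

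**Figure D5:**
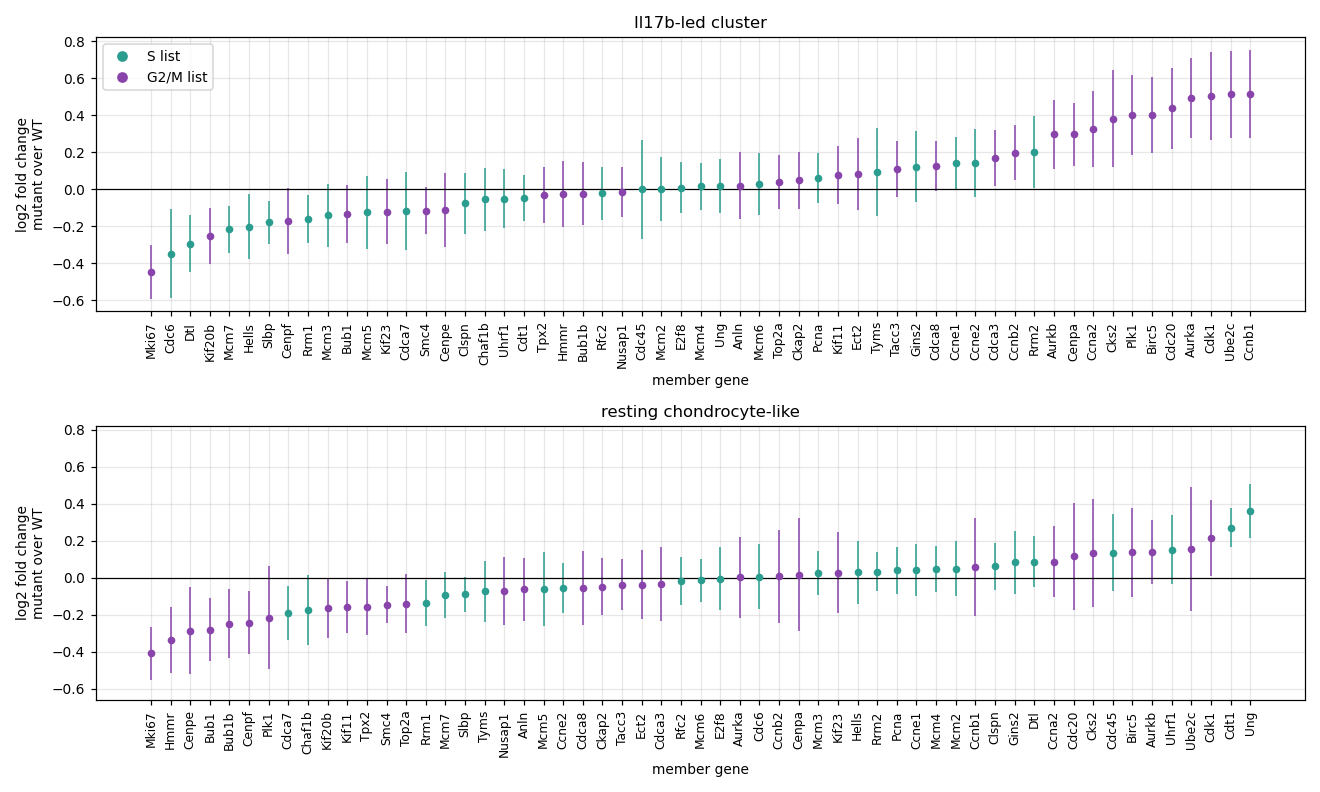
Log2 fold change, mutant over WT, of the 57 genes in the Il17b-led cluster (top) and in resting chondrocyte-like cells (bottom), with bars of 1 standard error of the edgeR fit. None passed an adjusted p of 0.05; Mki67 is lowest in both (-0.45 and -0.41), and Ccnb1, Ube2c and Cdk1 are highest in the top panel.

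Members of 1 list thus did not move as 1 in the point estimates. Leaving out all cells and the erythroid, granulocyte and hypertrophic classes, Mki67 was lower in 12 of 12 classes (median log2 fold change -0.36, from -0.63 to -0.21, unadjusted p under 0.05 in 6). In other clusterings or cell limits the Mki67 estimate lay above 0 in the Tgfbi, prehypertrophic and Ostn-led cells, at 0.034 to 0.40. Cenpe was lower in 11 (median -0.36). Cdk1 was higher in 11 of 12 (median 0.19), and so was Rrm2 (median 0.16). Ung, which removes uracil from DNA, was higher in 12 of 12 (median 0.29, unadjusted p under 0.05 in 4). These genes were picked out after their values were seen, the classes share the same 5 pups, and no adjusted p passed. In resting cells the normalised CPM of Mki67 were 114 and 84.7 in the WT and 73.2, 83.9 and 68.0 in the mutant libraries, and those of Ung 47.3 and 36.9 against 51.8, 62.6 and 47.9. Neither set overlaps.

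Longer members lay lower in the mutant in some classes. In the Il17b-led cluster Spearman's rho between log2 fold change and transcript length over the 57 genes was -0.52, and over all genes -0.01; in the resting class it was -0.36 and 0.09. Over the members it was below 0 in 14 of the 16 fits, and 0.051 in the proliferating and 0.19 in the hypertrophic class. These are descriptions across genes, which are not independent replicates. The longest transcripts were those of Cenpf (11130 bases), Mki67 (10061) and Cenpe (7910), and Cks2 was short (692). The relation was looked for after the values were seen, and its cause was not tested.

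Of 80 further cell cycle genes in 5 lists, none passed an adjusted p of 0.05 with edgeR in the 16 fits. An unadjusted p under 0.05 was found in 28 of 439 tests of other G2/M genes, 3 of 370 of other S genes, 12 of 166 of pocket proteins and E2F factors, 7 of 112 of G1 cyclins and kinases and 5 of 88 of inhibitors of cyclin-dependent kinases, where 5.37% of all tests did. Ccnd1 in resting cells held 69.0 and 64.9 normalised CPM in the WT and 79.4, 106 and 101 in the mutant libraries, with no overlap (log2 fold change 0.51 ± 0.13 SE, unadjusted p = 0.0037, adjusted p = 0.965, edgeR). In CPM without that normalisation, 5.11% of all genes were higher in every mutant library of that class. Cdkn1c did not separate the genotypes, with -0.02 ± 0.41 in prehypertrophic and -0.31 ± 0.33 in hypertrophic cells.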

How the data were processed

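Growth plate cells of 5 mouse pups (2 WT, 3 mutant, grouped by the genotype label) were studied by single-cell RNA sequencing. The authors deposited whole UMI counts per gene and cell, without normalization, made with the processing pipeline the study names and filtered afterwards in Seurat; the build was mm10 per the labels, and the aligner and annotation are not given in the sources used here. No column of another sample was used (0 found). No step for doublets is stated. Doublets were left in, since the caller's own threshold marked only 1 and 3 cells in 2 libraries.

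Here the study's cell limits were applied: under 200 or over 6000 genes, or over 10% mitochondrial UMIs. Pearson residuals (theta 100) of 3000 variable genes, without 345 cell cycle genes and 1312 genes correlated with them above 0.1, gave 50 principal components and a graph of 20 neighbours for Leiden clustering at resolution 1.5 (leidenalg 0.10.2). Clusters were named from marker lists, and other marker choices could change the names. The members, gene lists and tests were chosen with earlier results of these data known. Named genes followed a rule: a list of well-known members, those with the 3 smallest p per phase in the class with most member UMIs, and the extremes against hypertrophic cells. Members named outside it, such as Rfc2, Cdt1, Smc4, Cenpe and Ung, were chosen after their values were seen. UMI counts were summed per library and class and tested with edgeR 4.0.16 (TMM, filterByExpr, quasi-likelihood, Benjamini-Hochberg), with DESeq2 1.42.0 as an alternative (R 4.3.3). Libraries were 1 pup each, so p-values measure the spread between pups. For a share, the difference in means over all 10 regroupings of the libraries gave a 2-sided exact permutation p (Python 3.11.15). Levels are CPM of all UMIs of the class in a library, unless called normalised, which are TMM-normalised CPM. Thinning drew 3000 UMIs per cell at random. Transcript lengths are those of the longest coding transcript in GENCODE. The edgeR and DESeq2 tests were also run on counts simulated at the means and depths of resting cells, and the outcome is not given here. Alternatives were other normalization, filters, clusterings, depths and left-out libraries.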

Additional observations from a re-analysis of the deposited data

How the results depend on the processing

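The count of members called stayed at 0 in each of the 16 fits, with the exceptions below. This held for DESeq2, its size factors in edgeR, and every other clustering, doublet setting and cell limit tried. Cells were not brought to 1 depth for these gene tests. With a 20% mitochondrial limit, 13 members were called in the Tgfbi class (0.231% of all genes), all lower in the mutant. There that class held 1434 and 1212 G2/M CPM in WT and 595, 710 and 582 in mutant libraries, and its Arc and Epcam-led cells made up 41.7% and 59.1% of it against 26.9%, 20.1% and 20.8%. With no filter on low counts, Mki67 was called in the Tgfbi, articular and erythroid classes (1 member each), Kif20b in the Ostn-led cluster (1) and Cenpf and Mki67 in pericyte or smooth muscle-like cells (2), all lower in the mutant. Of all genes, 1.67%, 0.253%, 0.166%, 0.230% and 1.06% were called in those fits in the same order. Without WT replicate 2, 18 members were called, all lower, in erythroid-like cells (1.63% of all genes), and 0 without any other library (range 0 to 18). WT replicate 1, which stands apart in that class, is then the only WT library and is assumed to vary like the mutant ones.

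The other values are differences, mutant minus WT, that passed no test and changed sign. They are CPM for shares of UMIs and percentage points for shares of cells. At Leiden resolution 0.8 the S share of the Il17b-led cluster became 23.1 and its S cells 0.764, prehypertrophic G2/M 363, resting S cells 0.239, and Mki67 0.31 in the Tgfbi and prehypertrophic classes. At resolution 2.5 they were 3.10 for resting S, 414 for prehypertrophic G2/M and 0.40 for prehypertrophic Mki67. With cell cycle genes allowed among the features, the Il17b-led S share became 62.5 and its S cells 2.22, resting S cells 0.0610, and Mki67 0.034 in the Tgfbi class and 0.14 in the Ostn-led cluster. At 20% mitochondrial UMIs the Il17b-led S share was 0.604, prehypertrophic G2/M 437 and prehypertrophic Mki67 0.37. Without an upper limit on genes, Il17b-led G2/M became -273 and its G2/M cells -1.14, prehypertrophic G2/M 210 and Il17b-led Top2a -0.18. With only listed genes kept out of the features (added after seeing the data), prehypertrophic G2/M was 38.0, resting S cells 0.0285, Il17b-led G2/M cells -0.182 and Top2a -0.043. Without the 5% of cells with the highest doublet scores (also added), which replaced the caller's own calls, resting S was 0.877. At 5000 UMIs per cell S cells were 0.124 over all cells and 0.577 in resting cells. With at least 1 UMI, Il17b-led S cells were 0.109, and without thinning its G2/M cells were -9.47.

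Leaving out each library in turn, the G2/M share ranged from -113 to 37.1 in prehypertrophic, -286 to 56.5 in resting and -146 to 377 in Il17b-led cells. The S share ranged from -21.0 to 38.1, -46.6 to 35.5 and -117 to 33.9 in the same order, and from -66.1 to 5.93 in tendon or ligament-like cells. G2/M cells ranged from -1.43 to 0.332 in resting and -3.06 to 2.96 in Il17b-led cells, and S cells from -2.03 to 0.488 over all cells, -1.30 to 1.29 in resting and -4.69 to 0.317 in Il17b-led cells. Mki67 ranged from -2.49 to 0.63 in erythroid-like cells and Top2a from -0.11 to 0.15 in the Il17b-led cluster. The causes were not tested. No paired analysis was possible because the labels give the groups no shared replicate numbers. A pair of libraries in 1 group limits every genotype test.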
